A study of Homo sapiens with 4 samples.

Results

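The human genes that encode the proteins of the cytosolic ribosome were followed through 4 single-cell RNA libraries of subcutaneous PANC-1 tumours from nude mice. Members were chosen by symbol, as the RPL and RPS genes with RPLP0, RPLP1, RPLP2 and RPSA, and a mean level of at least 20 counts per 1000000 human UMIs (CPM) over the 4 libraries was required. A UMI is a molecular tag that marks 1 captured transcript. Of 36601 human features 83 symbols matched, and 80 of them passed the minimum, 31 for the small 40S subunit and 49 for the large 60S subunit. The 3 that did not pass were the paralogs RPL39L, at 10.7 to 14.2 CPM, RPL3L, at 0 to 1.63 CPM, and RPL10L, with no UMI in any library. Just above the minimum lay RPL22L1, at 49.3 to 62.4 CPM, and RPS27L, at 54.5 to 68.8 CPM.

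PANC-1 cells come from a human pancreatic ductal adenocarcinoma, and nude mice lack a thymus and therefore mature T cells. The groups were control, agrimoniin (a plant ellagitannin), erlotinib (an inhibitor of the EGFR kinase) and the combination of agrimoniin with erlotinib, each as PANC-1 tumour tissue. Doses, times and the age of the mice were not given in the sources used here, and the series' design text names cyranin where the sample labels give erlotinib. With 1 library per group there was no replicate check and no test, and each comparison is of 2 libraries rather than of 2 treatments. Where 4 values follow each other without names, they are in the order control, agrimoniin, erlotinib, combination, and 3 ratios to control are in the order of the treated libraries.

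All 1056 barcodes, of which none was shared by libraries, held UMIs of both species, so the human-gene UMIs of a barcode are called its human part and need not be a single cell. Kept human parts numbered 193, 283, 292 and 245, with 2420470, 3690705, 3775711 and 3109510 human UMIs. Median human UMIs per part lay between 11586 and 12653, and human genes took a median of 68.5% of a barcode's UMIs in control against 75.5%, 75.6% and 79.6% in agrimoniin, erlotinib and combination. Of 8 epithelial markers, KRT8, KRT18, KRT80, EPCAM and S100A2 were present and KRT7, KRT19 and CDH1 were near 0, at no more than 1.85 CPM. Human copies of 5 endothelial markers summed to at most 0.83 CPM and those of 10 macrophage markers to at most 10.3 CPM, nearly all of it CD68. Among 8 fibroblast markers COL1A1 reached 5545 to 6500 CPM and COL3A1 99.2 to 122 CPM, while COL1A2, DCN, LUM, PDGFRA, PDGFRB and DPT stayed under 3 CPM.

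A ribosome joins a 40S subunit, which reads the messenger RNA, with a 60S subunit, which forms peptide bonds, and each subunit carries ribosomal RNA with its proteins in fixed proportion. Ribosomal protein transcripts are among the most abundant of a growing cell. Most of them open with a cytosine followed by an unbroken run of pyrimidines, the terminal oligopyrimidine (TOP) tract, through which mTORC1 and the RNA-binding protein LARP1 govern their translation and stability.

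The start-site stretches of the members on which the results turn are shown for that tract. They were read from RefSeq promoter windows of build GRCh38.p14, which gave a window for 65 of the 80 members. Each runs from 15 bases before the annotated start through the first 25 bases of the transcript, in lower case with the tract in capitals where a C at the start is followed by 4 or more letters C or T on the transcribed strand. The first 5 were lower in the treated libraries, the next 3 higher and the last 4 lie on the X chromosome. RPL10 had 3 windows, of which the 1 with a tract is shown. RPL19 had 2 windows, neither with a tract, and the first is shown.
RPS3A, chr4:151099613-151099652, plus strand: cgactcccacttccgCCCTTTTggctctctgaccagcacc
RPS6, chr9:19380212-19380251, minus strand: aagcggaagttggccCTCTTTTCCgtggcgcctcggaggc
RPL9, chr4:39458898-39458937, minus strand: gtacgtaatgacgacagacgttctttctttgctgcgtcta
RPL12, chr9:127451382-127451421, minus strand: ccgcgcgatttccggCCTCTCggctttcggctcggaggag
RPL19, chr17:39200268-39200307, plus strand: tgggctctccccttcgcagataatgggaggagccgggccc
RPL35, chr9:124861933-124861972, minus strand: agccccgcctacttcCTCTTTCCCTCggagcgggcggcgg
RPL37A, chr2:216498829-216498868, plus strand: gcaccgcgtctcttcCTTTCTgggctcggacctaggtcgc
RPS24, chr10:78033848-78033887, plus strand: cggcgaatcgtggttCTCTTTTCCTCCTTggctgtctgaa
RPL39, chrX:119791606-119791645, minus strand: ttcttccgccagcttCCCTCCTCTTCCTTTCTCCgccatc
RPL36A, chrX:101390996-101391035, plus strand: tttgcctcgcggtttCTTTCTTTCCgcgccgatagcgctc
RPS4X, chrX:72277224-72277263, minus strand: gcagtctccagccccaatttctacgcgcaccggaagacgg
RPL10, chrX:154398362-154398401, plus strand: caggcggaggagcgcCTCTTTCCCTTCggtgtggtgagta

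A tract at the annotated start was found in 46 of the 65 matched members (70.8%) and in 1404 of all 27305 genes of the table (5.14%). When it could open within 3 bases of the start, the shares were 80% and 16.02%. Among the lower and higher members shown, the tract was found on both sides. It stood in RPS3A, RPS6 and RPL12 as in RPL35, RPL37A and RPS24, and RPL9 and RPL19 had none at the annotated start. RPL22L1, also lower in every treated library, is not among those shown. Members with the tract had median log2 ratios to control of 0.03, 0.07 and 0.14, and the 19 without it had -0.12, -0.02 and 0.04. The ranges of both sets overlapped, at -0.55 to 0.39 with the tract and -0.44 to 0.34 without it in the combination. Over the whole windows the median share of G and C was 59.3% in members and 58.7% in all genes.

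The summed level of the 80 members differed by at most 1.09 times between any of these libraries. They took 7.49% of human UMIs (exact 95% interval 7.45 to 7.52), 7.31% (7.28 to 7.34), 7.60% (7.57 to 7.63) and 7.995% (7.97 to 8.03). Combination was the highest and agrimoniin the lowest. The ratio of the summed level to control was 0.977 (0.971 to 0.982), 1.02 (1.01 to 1.02) and 1.07 (1.06 to 1.07). Combination stood at 1.05 times erlotinib (1.046 to 1.058) and 1.09 times agrimoniin (1.088 to 1.0995). These intervals cover counting error only. Both subunits lay on the same side, with 40S and 60S ratios of 1.07 and 1.07 for combination against control and 0.980 and 0.974 for agrimoniin against control.

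The order of control among the libraries depended on which parts were summed. In parts of at most 10% mitochondrial UMIs the members took 8.18%, 7.34%, 7.88% and 8.04%, so control was the highest. Parts with more mitochondrial UMIs gave 6.70%, 7.26%, 7.15% and 7.91%, and there control was the lowest. Combination against control was thus 0.983 in the first set (0.975 to 0.991) and 1.18 in the second (1.17 to 1.19). Barcodes of at least 75% human UMIs gave 7.07%, 7.31%, 7.64% and 7.83%, and those under 75% gave 7.85%, 7.31%, 7.53% and 8.49%. Combination against agrimoniin stayed above 1 in all 4 sets, from 1.07 to 1.16. The part of the mitochondrial share and of the species mix of a barcode in the differences from control was not tested.

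**Figure D1:**
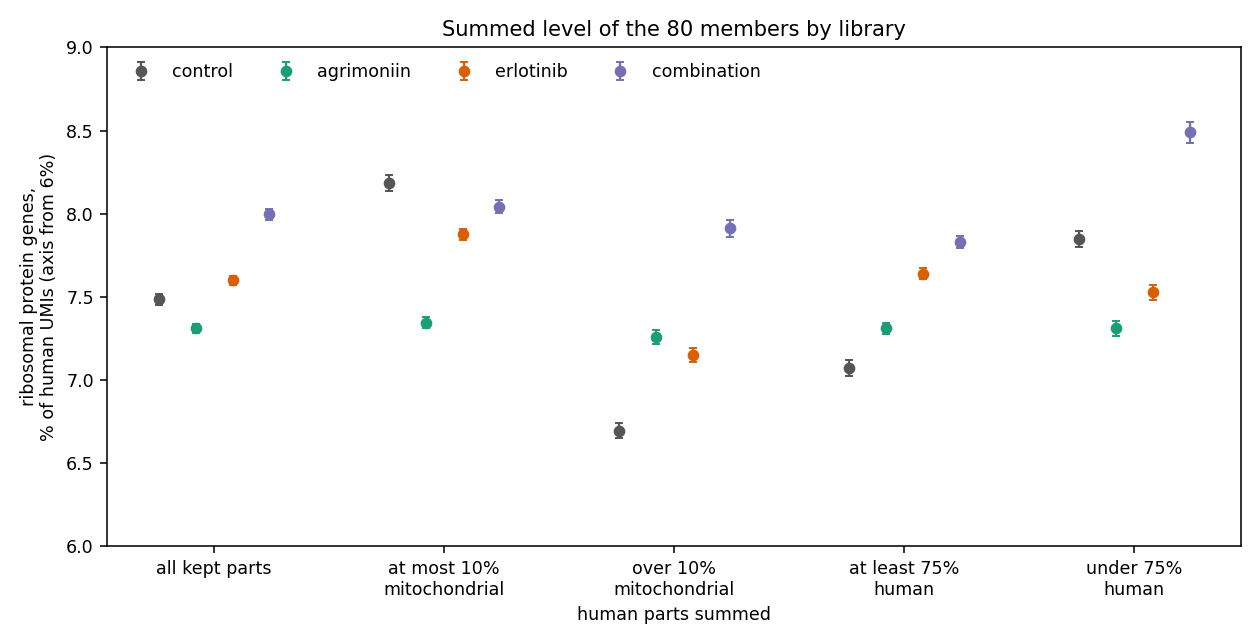
Summed share of human UMIs (percent, vertical axis from 6%) taken by the 80 members in each library, over all kept human parts and over 4 subsets of them. Bars are exact 95% intervals for counting error. Combination lies at 7.83% to 8.49% in every subset, while control moves from 6.70% to 8.18%.

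Among the parts of a library the share of human UMIs in members had medians of 7.24%, 7.24%, 7.42% and 7.57%. The quartiles of parts ran from 5.39% to 9.13% in control and from 6.32% to 9.52% in combination, so the quartiles lay farther apart than the libraries did. The 5th percentile was 2.76%, 2.27%, 3.81% and 4.22%. Parts below it had a median mitochondrial share of 15.4%, 15.3%, 15.2% and 11.3%, against 9.98%, 9.35%, 8.78% and 9.11% in the other parts. Across parts the member share and the mitochondrial share had Pearson's r of -0.32, -0.21, -0.26 and -0.04. With the nuclear RNA MALAT1 the r values were -0.36, -0.37, -0.28 and -0.34. The points of each correlation share a library and both measures share the UMI total of a part.

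Over all kept parts most members stayed within 1.2-fold of control in every treated library. In agrimoniin 3 of 80 were higher by at least 1.2-fold, beside 15.6% of the 7172 human genes of at least 20 CPM, and 11 were lower (13.75% of members), beside 10.6%. Most members are well above that minimum, and among the 780 genes of at least 200 CPM the shares were 7.69% higher and 8.21% lower, against 3 and 9 of the 74 members at that level. The median log2 ratio of the members was 0.01, and that of all genes of at least 20 CPM was 0.03.

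In erlotinib 1 member was higher, beside 16% of genes of at least 20 CPM and 8.85% of those of at least 200 CPM. Lower members numbered 7 (8.75%), beside 13.1% and 8.85%, with a median log2 ratio of 0.06 for members and 0.02 for all genes. In combination 9 were higher (11.25%), beside 15.4% of genes of at least 20 CPM and 10% of those of at least 200 CPM, and 7 were lower, beside 13.4% and 10%. There the median log2 ratio was 0.13 for members and 0.02 for all genes. Ratios above 1 were held by 59 of the 80 members, beside 3804 of the 7172 genes of at least 20 CPM. Among the 780 genes of at least 200 CPM 459 lay above 1. Of the 6 shares past 1.2-fold against control only that of lower members in agrimoniin was above both backgrounds.

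Combination differed least from erlotinib. RPS24 was the 1 member higher and none was lower, beside 11.2% and 12.4% of genes of at least 20 CPM and 6.92% and 4.36% of genes of at least 200 CPM. Against agrimoniin 12 members were higher (15%), beside 9.37% and 5.9%, and RPL8 alone was lower, beside 11.9% and 4.1%. The share higher against agrimoniin was above both backgrounds. The members' median log2 ratio was 0.07 against erlotinib and 0.12 against agrimoniin, where all genes had -0.01 and -0.02. The 5 comparisons share libraries and are not independent of each other.

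**Figure D2:**
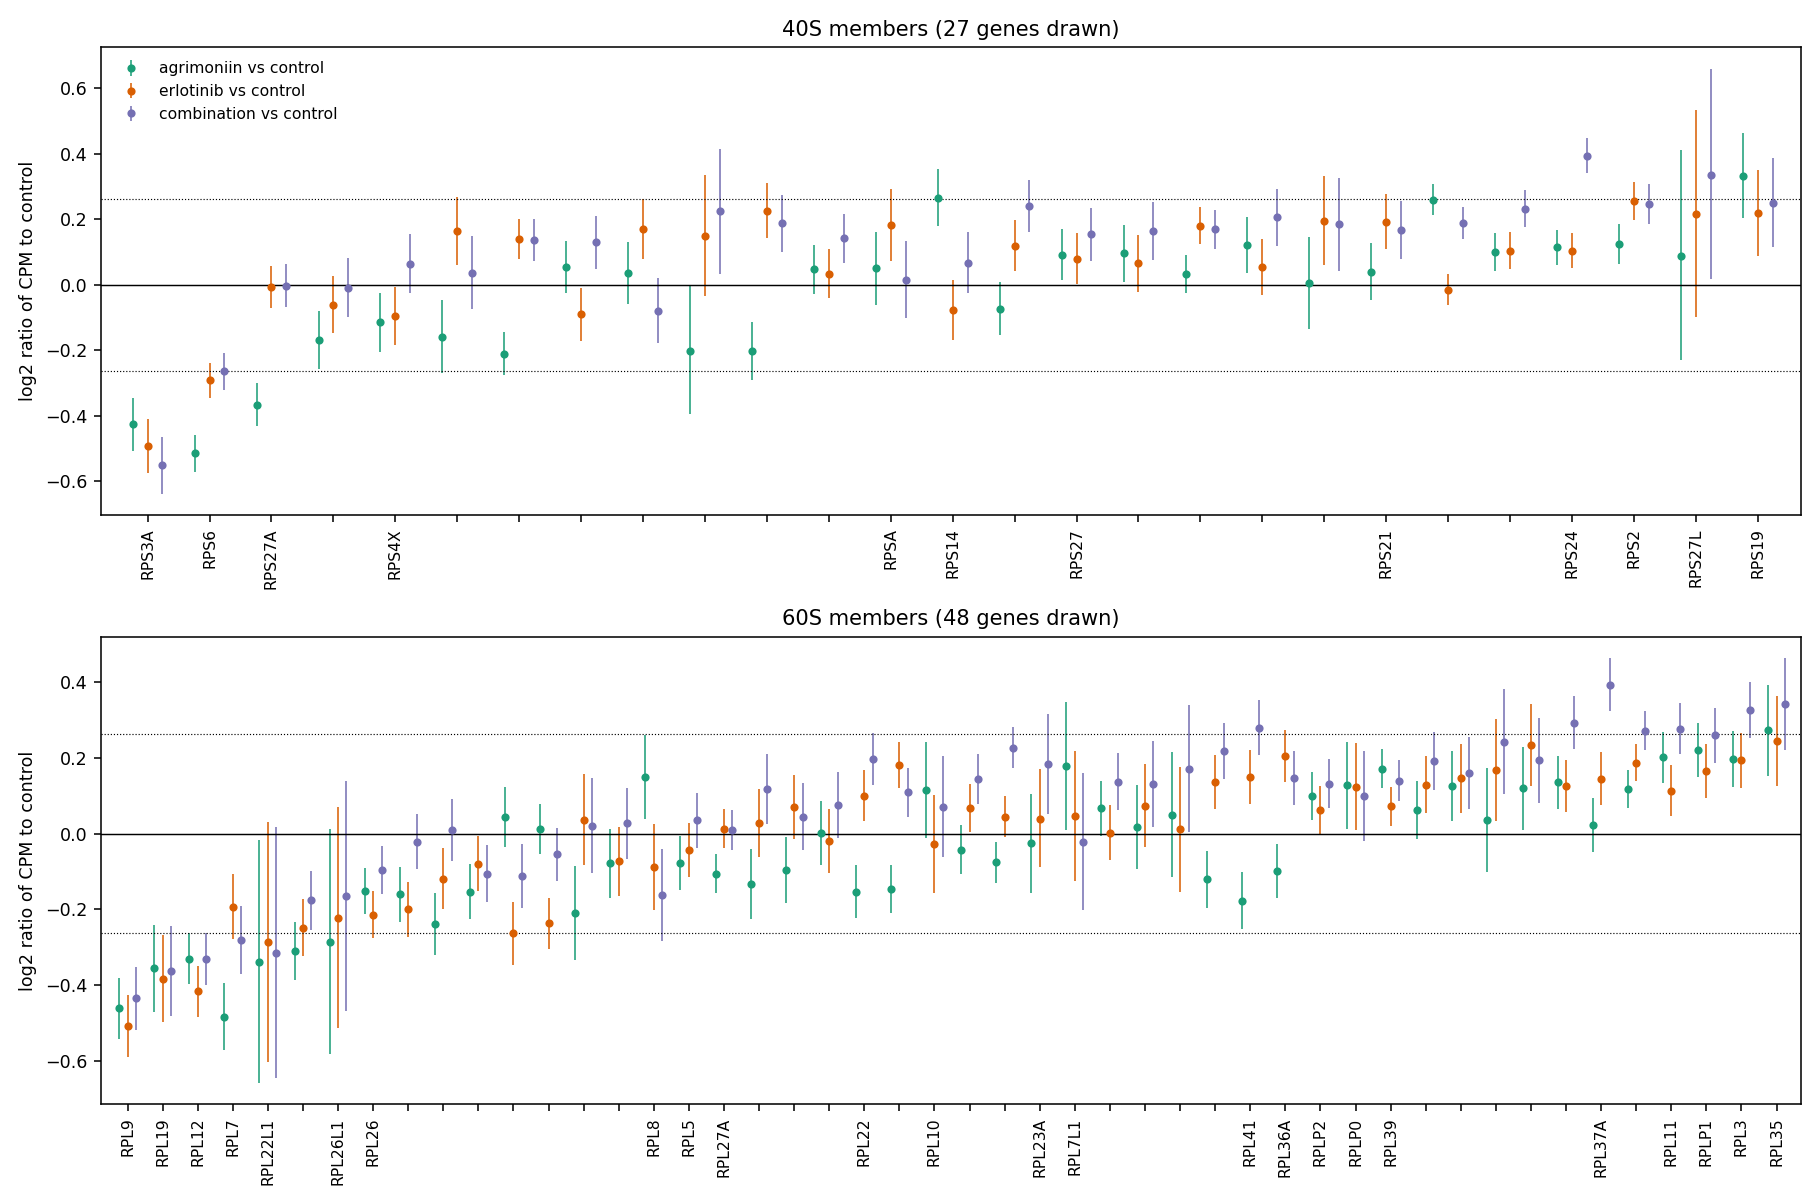
Log2 ratio of CPM to control for 75 of the 80 members, 27 of the 40S subunit above and 48 of the 60S subunit below, with symbols for those named in the text, ordered by their mean over the 3 treated libraries. Bars are exact 95% counting intervals and dotted lines mark 1.2-fold. RPS3A, RPS6, RPL9, RPL19 and RPL12 lie low in all 3 comparisons, and RPS24 and RPL37A stand high in combination.

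A group of 6 members was lower than control by at least 1.2-fold in all 3 treated libraries, and no member was higher in all 3. Among the 780 human genes of at least 200 CPM, 19 were lower and 12 higher in all 3. The 6 members were RPS3A, RPS6, RPL9, RPL12, RPL19 and RPL22L1. RPL22L1 lies under 200 CPM, so that background covers only the others. The same count over all genes of at least 20 CPM is not given here. RPS3A, a 40S protein near the exit of the mRNA channel, had 960, 714, 682 and 655 CPM. Control was the highest, and combination was 0.917 times agrimoniin (0.865 to 0.972). Its ratios to control were 0.744 (0.704 to 0.787), 0.711 (0.672 to 0.752) and 0.682 (0.643 to 0.724).

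RPS6, the 40S protein that S6 kinases phosphorylate downstream of mTORC1, had 2045, 1431, 1669 and 1702 CPM. Agrimoniin was the lowest, at 0.700 times control (0.673 to 0.728), and combination lay at 0.833 (0.801 to 0.866), barely past 1.2-fold. RPL9, a protein near the base of the P stalk, had 979, 711, 688 and 724 CPM. Its ratios to control were 0.726 (0.687 to 0.768), 0.703 (0.665 to 0.744) and 0.740 (0.698 to 0.784). Control stood apart, and the 3 treated libraries overlapped in their intervals.

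RPL12, which lies at the P stalk base, had 1381 CPM in control and 1099, 1035 and 1097 in agrimoniin, erlotinib and combination. RPL19, which reaches from the tunnel exit to the 40S subunit as an intersubunit bridge, had 473 CPM in control and 369, 362 and 368. For RPL19 the treated libraries could not be told apart at this depth, with combination at 1.01 times erlotinib (0.937 to 1.098). For RPL12 that ratio was 1.06 (1.01 to 1.11). RPL22L1, a paralog of RPL22, had 62.4, 49.3, 51.1 and 50.2 CPM from 151, 182, 193 and 156 UMIs. Its intervals reached 1.02 in erlotinib and 1.01 in combination, so its difference from control was not detectable there at this depth. All 3 comparisons use the same control library, and a deviation of that library alone would show in each of them.

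The direction of these 6 held in each of 10 other ways of choosing parts or scaling the libraries. RPS3A ran from -0.57 to -0.25 on the log2 scale in agrimoniin and from -0.74 to -0.31 in combination. RPS6 in combination ran from -0.40 to -0.09 and passed 1.2-fold in 5 of 11 settings, the fewest. RPL22L1 came nearest to no change, at -0.05 in 1 setting for erlotinib, where it passed in 8 of 11. RPL7, a 60S protein that binds ribosomal RNA, was lower in agrimoniin at 0.715 (0.672 to 0.761) and in combination at 0.823 (0.773 to 0.876), with 805, 576, 705 and 662 CPM. For RPL7 combination stood at 0.717 times control in parts of at most 10% mitochondrial UMIs and at 0.989 in parts above 10%. Agrimoniin stood at 0.643 and 0.818.

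The mouse counterparts of the same 6 genes were lower in the mouse parts of the same barcodes. Mouse Rps3a1 had 843, 629, 597 and 550 CPM of mouse UMIs. Its ratios to control were 0.746 (0.680 to 0.819), 0.708 (0.645 to 0.778) and 0.652 (0.584 to 0.728), close to those of human RPS3A. Mouse Rpl19 had 413 CPM in control and 285, 245 and 247 in the treated libraries, ratios of 0.691 (0.603 to 0.793), 0.593 (0.515 to 0.684) and 0.599 (0.509 to 0.705). Mouse Rpl9 stood at 0.823, 0.685 and 0.718 times control and mouse Rps6 at 0.738, 0.823 and 0.723.

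By the 1.2-fold rule 5 of the 6 counterparts were lower in agrimoniin, beside 19.6% of the 843 mouse genes of at least 200 CPM. All 6 were lower in erlotinib, beside 20.3%, and in combination, beside 21.8%. Of all 79 mouse counterparts of members 16, 18 and 26 were lower in agrimoniin, erlotinib and combination. Mouse Rpl22l1, at 0.30 to 0.84 UMIs per mouse part, lies under the level of that background. Mouse Rpl12 in agrimoniin was the exception, at 0.867 (0.772 to 0.973). Over all 79 counterparts the mouse and human log2 ratios to control had r of 0.45, 0.61 and 0.61. The likeness between the species was thus not confined to the 6 genes. Human and mouse values come from the same libraries and are no independent replicates. The treatment of reads that fit both species, not given in the sources used here, was not tested.

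**Figure D3:**
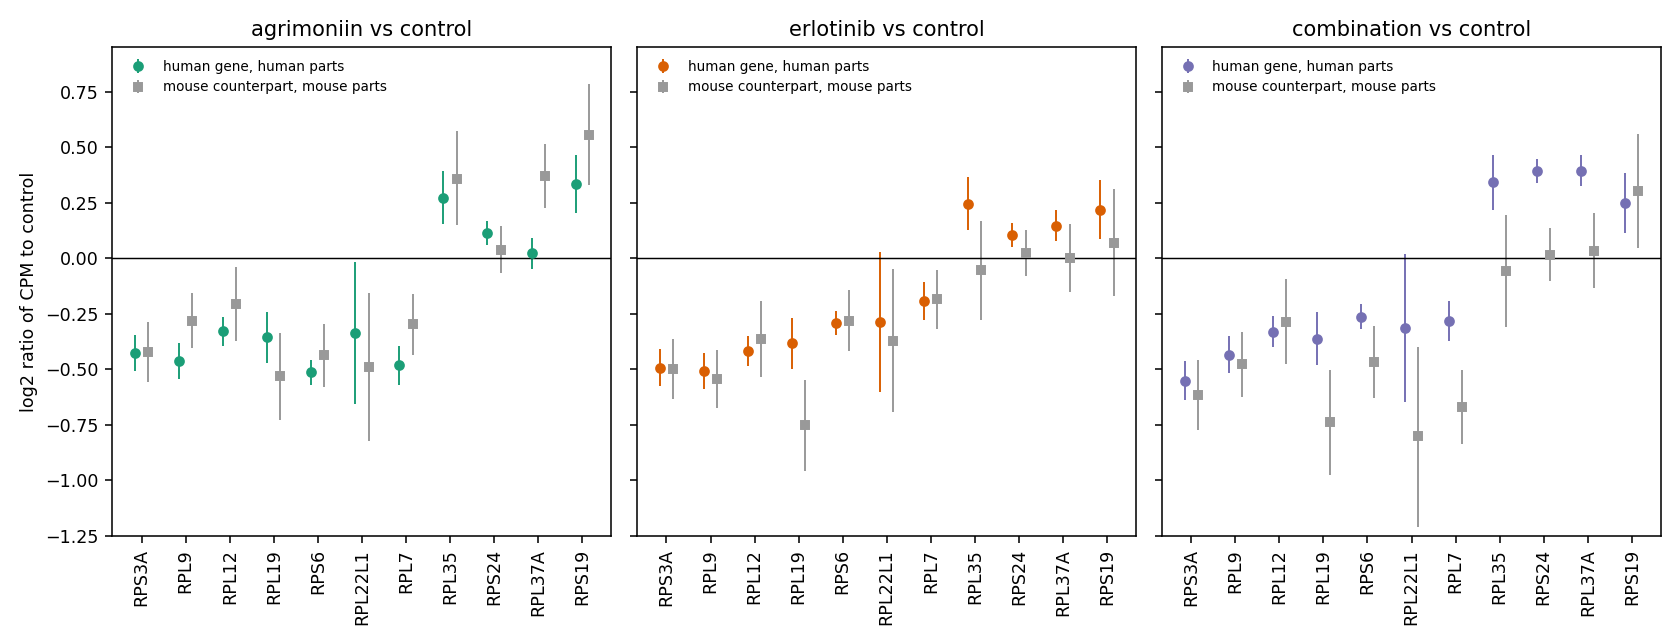
Log2 ratio of CPM to control for 11 human members in human parts (circles) and for their mouse counterparts in mouse parts (squares), in 3 panels for agrimoniin, erlotinib and combination. Bars are exact 95% counting intervals. Both species lie below 0 for RPS3A, RPL9, RPL12, RPL19, RPS6, RPL22L1 and RPL7 in every panel, while RPS24 lies above 0 in human parts only in combination by more than 0.3.

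The host's ribosomal protein genes were summed in the same way. In mouse parts 79 mouse genes chosen by the same rule took 4.88%, 4.74%, 4.62% and 4.42% of mouse UMIs. Their ratios to control were 0.971 (0.960 to 0.982), 0.946 (0.935 to 0.957) and 0.905 (0.894 to 0.917), beside 0.977, 1.02 and 1.07 in human parts. Over all kept parts both species were thus below control in agrimoniin. The human ratio there was 0.898 in parts of at most 10% mitochondrial UMIs and 1.08 in parts above 10%. It was 1.03 in barcodes of at least 75% human UMIs and 0.932 in those under 75%. In combination the human ratio was itself 0.983 in parts of at most 10% mitochondrial UMIs. Mouse parts mix host cell types, whose shares were not held fixed here.

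Of the members higher than control by 1.2-fold most were so in combination. In parts of at most 10% mitochondrial UMIs most calls of higher members were lost. There combination stood at 1.17 times control for RPS24, 1.10118 for RPL11, 1.149 for RPL3 and 1.08 for RPS27L. RPL37, RPL41 and RPL23 fell just under 1.2-fold in combination, at 1.188, 1.191 and 1.1998. Agrimoniin stood at 1.07 times control for RPL35, 1.11 for RPS14 and 1.16 for RPS19, so it kept no such call. RPL37A and RPL35 in combination stayed past 1.2-fold, at 1.22 and 1.21. Over all kept parts RPS24, a 40S protein of the body of the subunit, had 1877, 2032, 2017 and 2466 CPM. Combination stood above all others, at 1.31 times control (1.27 to 1.36), and 4.28% of its RPS24 UMIs came from a single part. Without the part with the most RPS24 in each library the log2 ratio to control was 0.34 in place of 0.39, and that to erlotinib was 0.24 in place of 0.29, below 1.2-fold. Mouse Rps24 had 1169, 1201, 1187 and 1182 CPM, a ratio of 1.01 in combination (0.932 to 1.097).

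RPL37A, a small zinc-binding 60S protein, had 1087, 1103, 1202 and 1428 CPM, and only combination passed 1.2-fold over control, at 1.31 (1.25 to 1.38). RPL35, at the rim of the peptide exit tunnel, had 365 CPM in control and 441, 432 and 462 in the treated libraries. Control was the lowest, with ratios of 1.21 (1.11 to 1.31), 1.18 (1.09 to 1.29) and 1.27 (1.16 to 1.38). RPS19, a 40S assembly protein and the gene most often mutated in Diamond-Blackfan anaemia, had 303, 382, 353 and 361 CPM, with agrimoniin at 1.26 times control (1.15 to 1.38).

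Other members differed between libraries in further ways. RPL41, a very short peptide of the 60S subunit, had 1031, 911, 1144 and 1252 CPM, and was the member with the largest ratio of combination to agrimoniin, 1.37 (1.31 to 1.44). RPS27A, made as a fusion with ubiquitin, had 1384, 1074, 1377 and 1380 CPM, so agrimoniin alone stood apart, at 0.776 times control (0.741 to 0.812). RPL3, at the peptidyl transferase centre, was at 984 CPM in control and 1128, 1125 and 1233 in the treated libraries.

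The 5S RNP pairs RPL5 and RPL11 with 5S ribosomal RNA and, when ribosome assembly fails, is known to hold MDM2 and so release p53. RPL11 had 1171, 1346, 1266 and 1420 CPM and was past 1.2-fold in combination, at a log2 ratio of 0.28. RPL5 had 1093, 1036, 1060 and 1120 CPM, with log2 ratios of -0.08, -0.04 and 0.03. The P stalk recruits the elongation factors. Its 3 genes were above control in each treated library by less than 1.2-fold, with RPLP0 at 411, 449, 448 and 441 CPM, RPLP1 at 1032, 1202, 1157 and 1236 CPM and RPLP2 at 1336, 1432, 1395 and 1464 CPM. In parts of at most 10% mitochondrial UMIs the log2 ratios to control were -0.13, -0.05 and -0.03 for RPLP2 and -0.06, 0.000255 and -0.09 for RPLP0, while RPLP1 stayed above control.

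Of the 7 paralogs 4 passed the level minimum. RPL22L1 is described above. RPL26L1 had 71.1, 58.3, 60.9 and 63.4 CPM, with log2 ratios of -0.29, -0.22 and -0.17. RPL7L1, which acts in ribosome assembly, had 188, 213, 194 and 185 CPM. RPS27L, a target gene of p53, had 54.5, 58.0, 63.3 and 68.8 CPM, at 1.26 times control in combination (1.01 to 1.58). The parent genes did not follow a common direction, with RPL22 at 1206, 1084, 1292 and 1383 CPM, RPL26 at 1543, 1389, 1330 and 1444 CPM and RPS27 at 884, 942, 934 and 983 CPM.

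By position in the ribosome, the 7 genes around the peptide exit tunnel had median log2 ratios to control of -0.03, 0.04 and 0.14, with RPL35 above 1 and RPL19 below it in each. The 3 genes at the mRNA entry site had medians of 0.04, 0.19 and 0.18, with none past 1.2-fold. RPS2, at that site, had 1475, 1607, 1760 and 1748 CPM. Only RPS2 of the 3 stayed above control in parts of at most 10% mitochondrial UMIs, with log2 ratios of 0.05, 0.21 and 0.16. The others lay there at -0.20 and -0.14 in agrimoniin, -0.02 and -0.01 in erlotinib and -0.31 and -0.12 in combination. Most of the 7 tunnel genes were also below control in combination in those parts. The 4 genes at the mRNA exit site had medians of -0.03, -0.01 and 0.05, with RPS3A lower in each and RPS14 higher in agrimoniin at 0.27. Of 18 Diamond-Blackfan anaemia genes 2, 0 and 3 were higher and none was lower, with medians of 0.03, 0.09 and 0.16. Of all genes of at least 200 CPM 7.69%, 8.85% and 10% were higher, so these counts lie near the background.

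Genes that work with the ribosome showed other patterns. The 6 elongation factor genes had medians against control of 0.21, 0.15 and 0.22, and EEF1A1, which brings aminoacyl-tRNA to the ribosome, had 9919, 10718, 10914 and 12710 CPM. The 4 ribosome components outside the symbol rule had medians of 0.13, 0.18 and 0.20, with RACK1, the scaffold on the 40S head, at 955, 1179, 1023 and 1112 CPM. Among 8 other TOP transcripts 3, 2 and 3 were lower, beside 10.6%, 13.1% and 13.4% of all genes of at least 20 CPM, and NACA, a chaperone subunit at the tunnel exit, had 627 CPM in control and 436, 464 and 490 in the treated libraries. Of 27 initiation factor genes measured 1, 0 and 3 were lower, beside the same shares, and 1, 2 and 2 higher, beside 15.6%, 16% and 15.4%.

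Genes that build ribosomes were read against all genes of at least 20 CPM, of which 15.4% were higher and 13.4% lower in combination against control. Of 29 ribosome biogenesis factors measured 8 were lower and none higher in combination against control, with a median of -0.12, and NOP56, a core protein of box C/D snoRNPs, had 230, 186, 239 and 166 CPM. The 8 RNA polymerase I genes measured had a median of -0.21 there, with 3 lower. In agrimoniin and erlotinib the medians were -0.05 and -0.02 for the biogenesis factors and -0.12 and 0.01 for the polymerase genes. The 12 snoRNA host genes were lowest in agrimoniin, where 6 were lower, beside 10.6% of all genes, and the median was -0.26, against -0.04 in erlotinib and -0.08 in combination. Of 65 mitochondrial ribosomal protein genes measured, 7 were higher and 15 lower in combination against control. Erlotinib went the other way, with 19 higher and 9 lower, beside 16% and 13.1% of all genes. Agrimoniin had 13 higher and 10 lower, beside 15.6% and 10.6%. The S phase list, which tells of replicating cells, had medians of 0.30, 0.38 and 0.14 against control and the G2/M list 0.29, 0.24 and 0.12, and their part in the ribosomal protein levels was not tested.

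Between the parts of a library, most members varied somewhat more than counting allows once a part's total of member UMIs was given. The measure was the Pearson chi-square of a member's counts per degree of freedom, which is 1 when parts differ by counting alone. Its median over members was 1.49, 1.43, 1.45 and 1.43. RPL19 was at 1.06, at the lower end. The 5 largest values belonged to RPL39, RPL36A, RPS4X, RPS21 and RPL27A.

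The 4 members on the X chromosome ranked 1, 2, 3 and 14 of 80. RPL39, a short peptide inside the exit tunnel, had values of 7.54, 8.34, 6.68 and 7.26. RPL36A had 4.84, 4.56, 4.37 and 4.62. RPS4X, whose counterpart lies on the Y chromosome, had 3.33, 2.85, 2.37 and 2.60, and RPL10, which finishes the 60S subunit and holds the P site, had 2.03, 2.44, 1.70 and 1.80. The next member, RPS21, had 2.18, 2.36, 1.89 and 2.36. The order of the first 3 was the same in all 4 libraries apart from RPS24 in combination, at 6.70, the library in which 4.28% of its UMIs came from a single part.

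The chi-square grows with the count of a gene. The spread beyond counting was therefore also taken as a coefficient of variation. It was 0.49 for RPL36A, 0.48 for RPL39, 0.46 for RPL10 and 0.44 for RPS4X, as medians over the libraries, so the 4 genes were alike in this measure, and the median of all members was 0.19. Only the 4 low-level paralogs RPS27L, RPL22L1, RPL26L1 and RPL7L1 had larger values, from 0.61 to 0.78. The mouse counterparts were not alike in this, with 0.18 for Rpl39, 0.13 for Rpl36a, 0.24 for Rps4x and 0.46 for Rpl10, the last from at most 1.06 UMIs per mouse part.

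**Figure D4:**
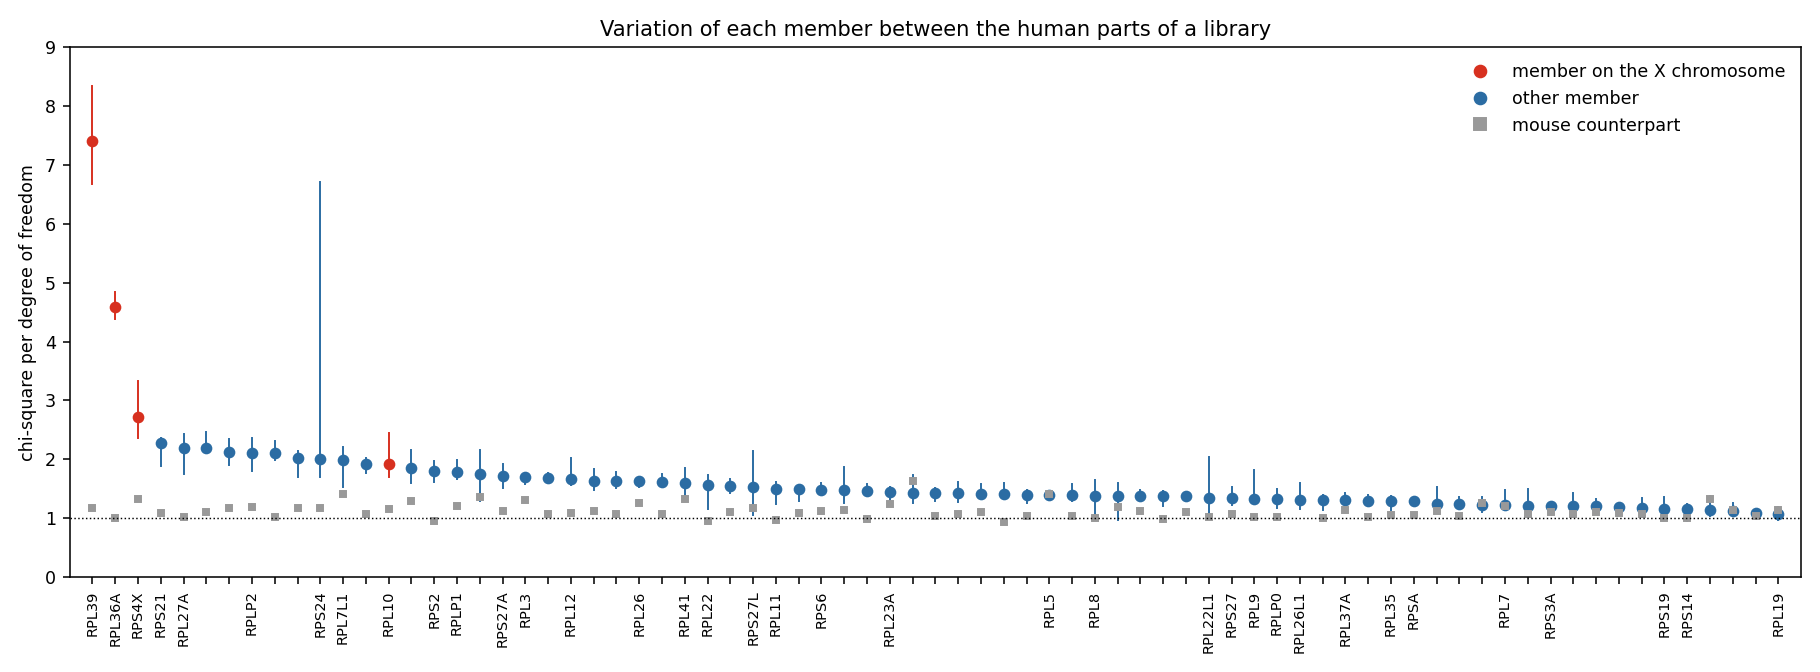
Chi-square per degree of freedom of 75 members, with symbols for those named in the text, between the parts of a library, ordered by the median over the 4 libraries (points), with the range over libraries as a line. Members on the X chromosome are red, other members blue and mouse counterparts grey squares, and the dotted line at 1 is counting alone. RPL39, RPL36A and RPS4X lead, and the long line of RPS24 is the combination library.

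The X-linked members varied together. Among 3160 pairs of members, the pairs RPL36A with RPL39, RPS4X with RPL39 and RPL39 with RPL10 had the 3 highest median correlations of their residuals over parts, at 0.53, 0.49 and 0.44. The 6 X-linked pairs had a median of 0.38, the 170 pairs on a shared autosome 0.03 and the 2984 pairs on different chromosomes -0.01. The weakest X-linked pair was RPS4X with RPL36A, at 0.27, 0.23, -0.02 and 0.06.

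They also varied with other genes of the same chromosome arm. All 4 lie on the long arm, taken here as the X chromosome past 60 Mb. RPL39's share of member UMIs correlated over parts with the summed share of 127 other genes of the long arm at r of 0.70, 0.70, 0.68 and 0.79. With 78 genes of the short arm the values were -0.01, 0.13, 0.08 and 0.12. The long arm gave median r of 0.56 for RPL36A, 0.45 for RPL10 and 0.43 for RPS4X, and the short arm 0.29, 0.06 and -0.06, so RPL36A differed least between the arms. For each of the 4 the long arm ranked first among the 24 chromosomes and arms compared, and the highest autosome reached 0.31 for RPL39. For 19 of the 76 other members their own chromosome ranked first, with a median r of 0.06 over those 76. The parts of a correlation share a library and a UMI total, and RPL39's share had r of no more than 0.24 in size with the mitochondrial share, the human share or the log UMIs of a part.

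As levels, parts were divided at the median share of the other long arm genes, which uses no member. RPL39 had 2826 CPM in the upper and 1215 CPM in the lower set of control parts, a ratio of 2.32 (2.19 to 2.47). The other libraries gave 2.37, 1.92 and 2.43. RPL36A gave 2.71, 2.54, 2.10 and 2.75, RPL10 gave 2.13, 2.28, 1.71 and 1.87, and RPS4X gave 1.71, 1.55, 1.29 and 1.42. The other members had medians of 1.06, 1.07, 1.098 and 1.13. Genes of 1 arm were not divided further by position.

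**Figure D5:**
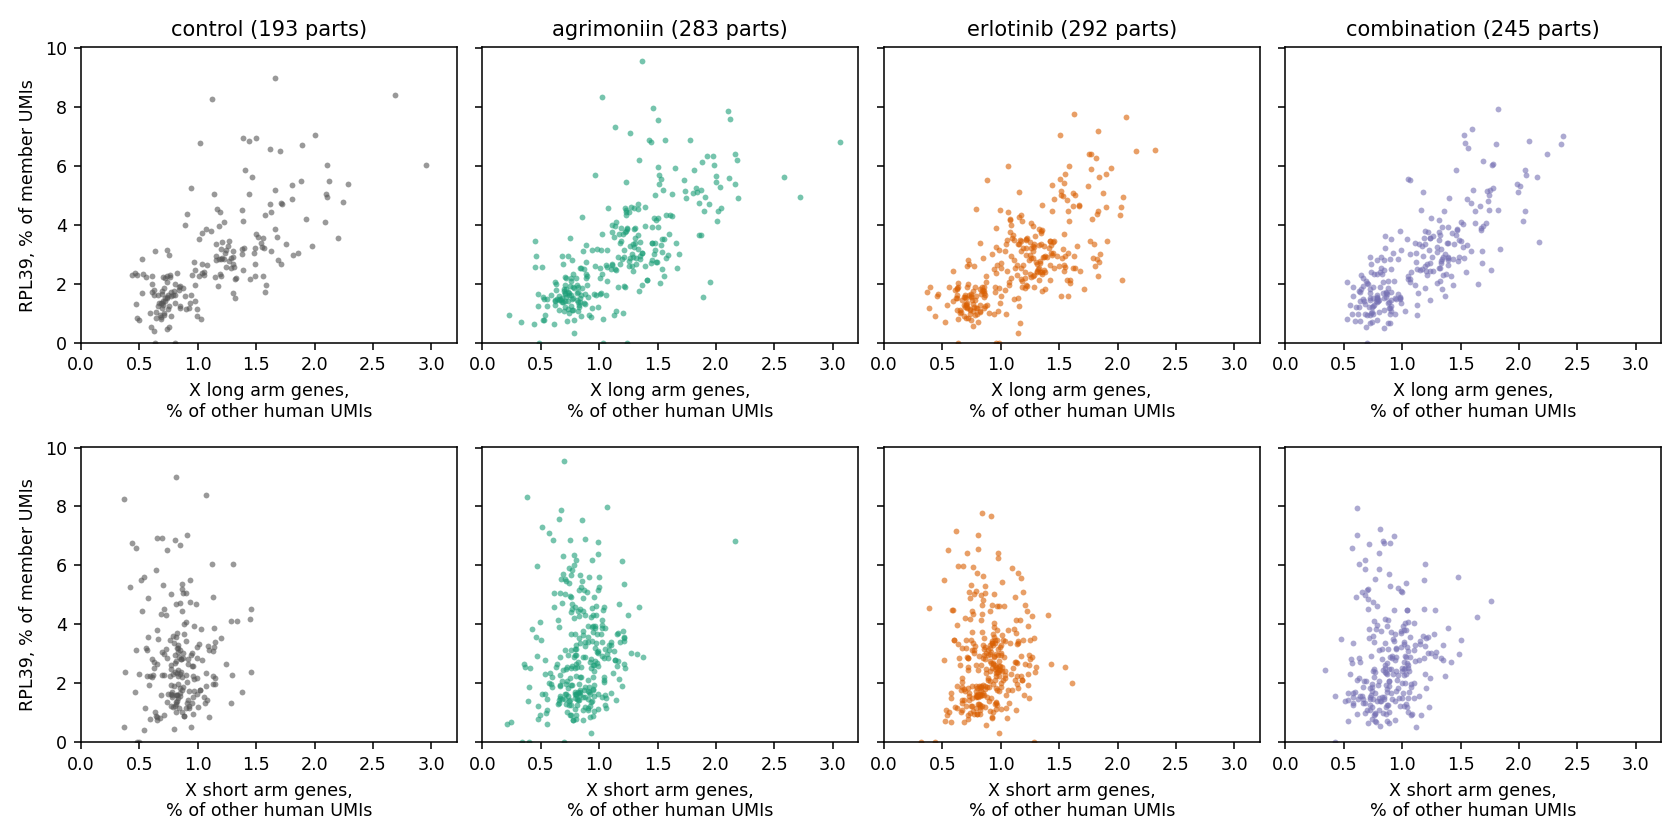
Share of member UMIs that fall in RPL39 (percent, vertical axis) in each human part against the share of other human UMIs in genes of the X long arm (upper row) or X short arm (lower row), 1 panel per library. Each point is 1 part. Points rise to the right in the upper row, with r of 0.68 to 0.79, and show no such slope in the lower row, with r of -0.01 to 0.13.

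The X-linked members were also compared between libraries. RPL39 had 2021, 2275, 2124 and 2227 CPM, RPL36A had 1123, 1049, 1294 and 1242, RPS4X had 718, 663, 672 and 751 and RPL10 had 334, 362, 328 and 351. None passed 1.2-fold in any of the 5 comparisons, which do not set erlotinib against agrimoniin, the libraries farthest apart for RPL36A. The long arm share of a part had similar quartiles in all libraries, from 0.74% to 1.47% in control and from 0.81% to 1.43% in combination.

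Read assignment limits these values for many members. GENCODE 29 holds 1142 pseudogenes named for 76 of the 80 members, 91 of them for RPL23A, 50 for RPL12 and 38 for RPS3A, and none of these pseudogenes is among the features of the tables. RPL36A and RPL36AL are close copies, and so are RPL39 and RPL39L, and the counting of reads shared by copies was not given in the sources used here.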

How the data were processed

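The deposited tables hold raw UMI counts per gene and barcode from a 3-prime single-cell kit, per the labels' protocols. The authors used Cell Ranger with hg38 and mm10, per the submitters' processing notes, with no version stated in those notes. All barcodes had 3 blocks of bases, which is not the layout of the named kit. Parts with at least 500 UMIs, 250 genes and at most 25% mitochondrial UMIs were kept, and UMIs were summed per library and scaled to CPM with no pseudocount. Free RNA and doublets were not removed. Ratios have exact 95% intervals conditional on the sum of both counts, shares exact Clopper-Pearson intervals, and all cover counting error only. With 1 library per group a fixed size of 1.2-fold stood in for a test. Some ribosomal protein genes are not reported by name here, and those among the 80 members stay in the sums and counts. The members and lists were chosen with earlier results of these data known. Members named were taken from a rule, not all of it printed, that holds, per comparison, the 5 highest and 5 lowest members, the 5S RNP, P stalk, paralog and parent genes, the members nearest the minimum, the 5 most variable and 2 per other list. Others in the text were chosen after their values were seen. Gene positions are from GENCODE 29. The chi-square was tested on simulated data. Python 3.11.15, numpy 2.4.6 and scipy 1.17.1 were used. No window was matched for RPL23, RPL23A, RPL30, RPL37, RPL5, RPL7, RPL8, RPS15A, RPS2, RPS20 and others.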

Additional observations from a re-analysis of the deposited data

How the results depend on the processing

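No paired analysis was possible because each group had 1 library. In the lists below, summed ratios of members are in the order agrimoniin, erlotinib and combination against control, then combination against erlotinib and against agrimoniin, and comparisons left out of a list stayed within the counting interval or within 1.5 times the count. Over 12 settings combination stayed above agrimoniin (1.07 to 1.16) and above erlotinib (1.02 to 1.13). The direction against control turned for agrimoniin, erlotinib and combination in at least 1 setting each, and the cause was not tested.

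Parts of at most 10% mitochondrial UMIs gave summed ratios of 0.898, 0.962, 0.983 and 1.02, medians of -0.13, -0.0174 and 0.00171 against control, and 13 members past 1.2-fold in erlotinib. Parts above 10%, added after seeing the data, gave 1.08, 1.07, 1.18 and 1.11, medians of 0.15 in agrimoniin and 0.27 in combination, and 22, 17, 45 and 9 members. Barcodes of at least 75% human UMIs gave 1.03, 1.08, 1.11, 1.02 and 1.07, a median of 0.16 in erlotinib, and 19 members in erlotinib and 27 in combination. Barcodes under 75%, also added after seeing the data, gave 0.932, 0.959, 1.08, 1.13 and 1.16, medians of -0.10 and -0.0205 for the single drugs and 0.16 and 0.20 for combination against erlotinib and agrimoniin, where 17 and 26 members passed.

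Leaving mitochondrial genes out of the total gave 0.965, 0.998, 1.05 and, against agrimoniin, 1.09. Size factors gave 0.955, 1.00, 1.06 and, against agrimoniin, 1.11. Without the 5% of parts with the most UMIs the ratios were 0.955, 0.990, 1.06, 1.07 and 1.11. The mean over parts gave 0.965 in agrimoniin, then 1.08, 1.06 and 1.12 for combination, with 20 members past 1.2-fold against agrimoniin. Without the 5 members of the highest level they were 0.959 in agrimoniin, then 1.05, 1.04 and 1.10001 for combination. All barcodes gave 1.01 in erlotinib and 1.06 for combination against erlotinib, with 2 members.

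At 1.1-fold 36, 40, 49, 18 and 35 members passed, and at 1.5-fold 0 in each comparison. Of 2050 values for 41 named members 0 changed direction among those past 1.2-fold and 359 moved by more than their interval. A member's log2 interval reached a median of 0.08 to either side of its ratio to control.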

Other observations

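Outside the X chromosome a second set of members varied together between parts. Values are in the order control, agrimoniin, erlotinib, combination. RPS21 had residual correlations of 0.35, 0.37, 0.26 and 0.33 with RPS20, of 0.32, 0.40, 0.22 and 0.32 with RPLP2, and of 0.26, 0.37, 0.26 and 0.37 with RPL27A. RPS21 shares its chromosome with none of them. RPS21 also had the highest median r with other genes of its own chromosome 20 among members off the X, at 0.42, ahead of RPL21 at 0.32.

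Member shares of human and mouse UMIs in the same barcode had r of 0.06, 0.16, 0.21 and 0.21 over 193, 283, 291 and 244 barcodes.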
